A study of Homo sapiens with 2 samples.

Results

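The genes described here are 10 markers of the melanocyte lineage: the transcription factors MITF, SOX10 and PAX3, the receptors MC1R and EDNRB, the melanosome proteins PMEL and MLANA, and the pigment enzymes TYR, TYRP1 and DCT. They were chosen by name, and every probe that the deposited annotation assigns to one of these symbols was taken. The array holds 18 such probes among 58199, and 10 of its 34757 gene symbols. The study silenced THOC2, a subunit of the THO complex that couples transcription to mRNA export, in A375, an established human malignant melanoma line. Cells of 1 culture received si-THOC2 and cells of 1 other the control siRNA (NC), and total RNA collected after 48 h was hybridized to 1 Agilent 1-colour array per culture. The labels state no other treatment for either culture, and which of the listed THOC2 siRNAs was used is not given in the sources used here. Both THOC2 probes had less signal on the array assigned to si-THOC2 by title and description (136 to 40.9, and 67.3 to 35.1), whereas the source field of each sample names the other condition.

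Melanocytes make melanin in melanosomes, organelles related to lysosomes. MITF is the central transcription factor of the lineage. SOX10 and PAX3 switch it on, and binding of melanocyte-stimulating hormone to MC1R raises cAMP and, through CREB, MITF transcription. MITF and its partners then drive PMEL, which builds the fibrils of the melanosome, MLANA, which assists PMEL, and the enzymes TYR, TYRP1 and DCT, which turn tyrosine into melanin. Melanoma cells can lose part of this program while keeping their lineage factors.

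Of the 18 probes, 7 (38.9%) were well above background with NC and 8 with si-THOC2 by the scanner software's call, where the shares of all probes were 42.3% and 39.4%. The call rests on the spot's own local background, so it has no sharp limit. The lowest signal that received it was 14.7 with NC and 15.9 with si-THOC2. In bulk RNA, fewer cells that express a gene and less RNA per cell cannot be told apart. SOX10, MITF, PAX3, MC1R and DCT had a detected probe on both arrays. MLANA had one on the si-THOC2 array alone, and EDNRB, PMEL, TYR and TYRP1 had none. Thus the 3 lineage regulators and MC1R were detected in these A375 cells, while the melanosome proteins and 2 of the 3 pigment enzymes gave no signal well above background with NC. A probe that is not well above background sets only an upper bound on its transcript, and a probe reads only the transcripts that hold its 60 bases.

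The sequences read by the array are shown for each detected gene and for PMEL and TYR, the best known pigment genes without a signal, since a transcript variant that lacks them would be missed. They are printed 5′ to 3′ as in the deposited annotation, 5 of them whole and the others as their first 30 bases. No exon annotation of hg19 was used to place them in exons, coding sequence or UTRs. Positions are on hg19. Probes of a gene are numbered by position. PMEL's probe spans 984 bases of the genome and so crosses an intron.
MITF probe 1, chromosome 3, 69987007 to 69987066: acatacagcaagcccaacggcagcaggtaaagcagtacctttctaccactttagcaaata
MITF probe 2, chromosome 3, 70014715 to 70014774: ggggaaacttgatttgagatttttatgcct
MITF probe 3, chromosome 3, 70017269 to 70017328: acagtataaaacagccctatttcttgataa
SOX10, chromosome 22, 38369089 to 38369148: catcggaggccttaccactcctatgactcc
PAX3 probe 1, chromosome 2, 223064781 to 223064840: ggtaggcacaaatacattccttttagagtt
PAX3 probe 2, chromosome 2, 223158961 to 223159020: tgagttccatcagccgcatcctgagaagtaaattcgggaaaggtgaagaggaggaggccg
MC1R probe 2, chromosome 16, 89987331 to 89987390: gagcatggggccaggaaagtctggtaataa
MLANA probe 2, chromosome 9, 5909735 to 5909794: atgtacctatggcaatttagctctcttggg
DCT, chromosome 13, 95095746 to 95095805: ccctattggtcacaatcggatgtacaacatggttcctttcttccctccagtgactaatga
PMEL, chromosome 12, 56348089 to 56349072: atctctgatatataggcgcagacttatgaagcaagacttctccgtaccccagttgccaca
TYR probe 1, chromosome 11, 88924518 to 88924577: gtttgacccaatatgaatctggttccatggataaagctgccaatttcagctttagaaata

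The promoters show the letters through which MITF is known to act on the pigment enzymes. MITF binds the M-box, searched here as TCATGTG with its core CATGTG, and CREB binds the cAMP response element TGACGTCA. Both strands of the 250 bases before each RefSeq start site (GRCh38.p14) were searched, and every M-box match contains a core match. Of the 10 genes, 8 had entries, with 12 start sites. SOX10 and PMEL had none. The M-box was found before a start of TYR, TYRP1 and DCT, the 3 pigment enzymes, and in 2.52% of all 35116 promoters. The core was also found before starts of EDNRB and MC1R, and in 9.42% of all promoters. The cAMP response element was found before 1 of the 3 MITF starts, and in 1.65% of all promoters. None of these motifs was found in the windows of MLANA and PAX3. A match describes letters and not a bound site. The 4 windows with an M-box or a cAMP response element are printed on the strand of the gene, with the matches in capitals.
MITF, plus strand, chr3:69936342-69936591: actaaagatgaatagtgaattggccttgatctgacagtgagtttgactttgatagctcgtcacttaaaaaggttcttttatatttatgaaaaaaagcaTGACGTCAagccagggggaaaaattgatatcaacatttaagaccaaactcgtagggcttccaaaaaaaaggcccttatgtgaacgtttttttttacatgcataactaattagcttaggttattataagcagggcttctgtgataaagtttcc
TYR, plus strand, chr11:89177625-89177874: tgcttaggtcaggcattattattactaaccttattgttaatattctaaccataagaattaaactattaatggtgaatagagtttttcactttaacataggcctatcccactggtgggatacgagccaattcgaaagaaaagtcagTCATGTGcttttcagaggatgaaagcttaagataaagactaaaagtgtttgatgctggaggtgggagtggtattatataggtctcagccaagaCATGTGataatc
TYRP1, plus strand, chr9:12693135-12693384: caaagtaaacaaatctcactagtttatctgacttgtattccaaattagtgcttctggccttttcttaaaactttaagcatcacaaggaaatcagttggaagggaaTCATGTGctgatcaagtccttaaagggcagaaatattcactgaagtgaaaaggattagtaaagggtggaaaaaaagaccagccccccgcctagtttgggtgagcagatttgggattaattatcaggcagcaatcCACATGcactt
DCT, minus strand, chr13:94479683-94479932: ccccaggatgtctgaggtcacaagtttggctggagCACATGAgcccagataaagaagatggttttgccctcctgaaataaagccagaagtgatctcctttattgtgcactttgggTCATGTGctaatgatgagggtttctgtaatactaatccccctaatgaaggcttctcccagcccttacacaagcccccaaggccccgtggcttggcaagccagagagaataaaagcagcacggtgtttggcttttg
In TYR the M-box begins 105 bases before the start and a second core 12 bases before it. In TYRP1 these distances are 145 and 11 bases. DCT has an M-box on the opposite strand 215 bases before the start and one on the gene's strand at 135 bases. The response element of MITF begins 152 bases before the start.

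**Figure D1:**
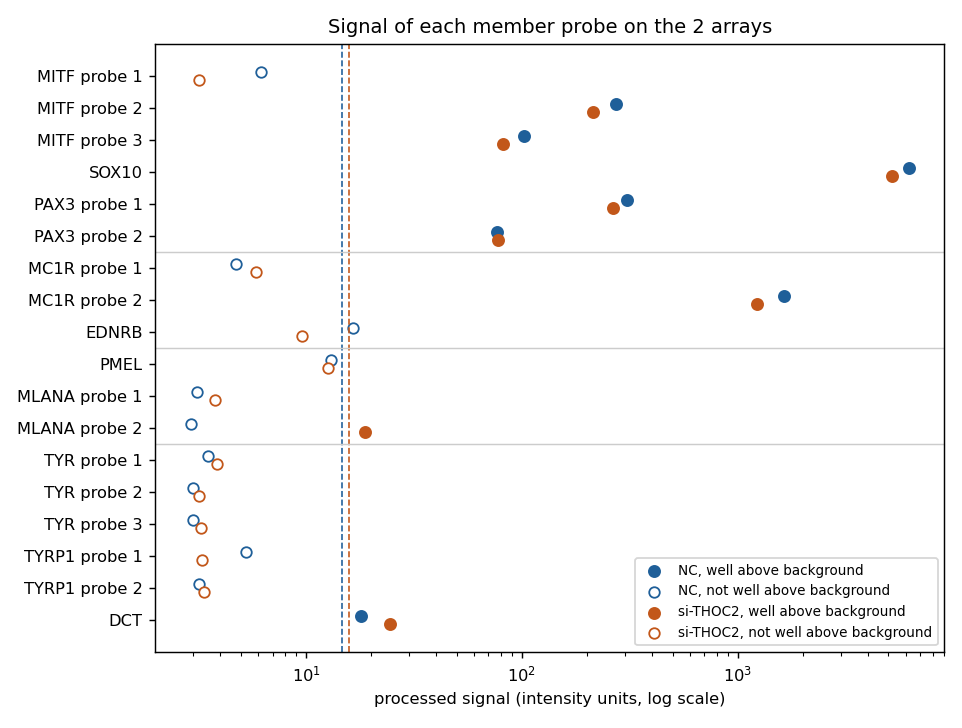
Processed signal (intensity units, log axis) of all 18 probes, 1 point per array, with NC in blue and si-THOC2 in orange. Filled points are well above background, open points are not, and dashed lines mark the lowest signal called well above background on each array (14.7 and 15.9). SOX10, MC1R probe 2, 2 MITF probes and both PAX3 probes lie far to the right of the lines on both arrays, and all TYR and TYRP1 points lie to the left.

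Signals below are the background-subtracted intensities, and differences are log2 values, si-THOC2 minus NC, after each array's 75th percentile was subtracted (log2 6.62 with NC and 6.31 with si-THOC2). Because the si-THOC2 array was dimmer, a probe with less signal there can have a difference near 0. Signals of different probes are not compared, as probes hybridize with different strength. With 1 culture per condition no test could be made and the spread between cultures is unknown. Each difference is therefore set beside its technical SD, the median for its band of signal among 300 probes printed on 6 to 10 spots. Of these, 244 lie in the brightest band and 6 in that of DCT (log2 signal 4 to 6). Each difference is also set beside the SD of the differences of the 1000 probes of closest signal. The technical SD does not include the variation between cultures. The SD of like probes comes from the same 2 cultures, so culture, treatment and technical variation cannot be told apart in it. A probe was called at a difference of 2-fold or more.

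SOX10, the neural crest factor that maintains the melanocyte lineage, was measured by 1 probe at 22q13.1. The NC array gave 6196 and the si-THOC2 array 5196, both well above background. After scaling the difference was 0.06 (technical SD 0.05), where probes of like signal had a median of 0.07 and an SD of 0.23. It was -0.03 with quantile normalization and with the authors' normalized values, -0.02 after lowess centring and -0.04 after normexp background correction, so no direction can be given.

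MITF at 3p13 had 3 probes. Probe 2 gave 274 intensity units with NC and 215 with si-THOC2, and probe 3 gave 102 and 81.5. Both were detected on both arrays, and their differences were -0.04 and -0.02 (technical SD 0.10 each), far under the SDs of 0.46 and 0.33 among probes of like signal. Probe 1, which lies upstream of both in the gene, had signals of 6.19 and 3.20, not well above background on either array, so no difference is given for it. MITF was thus read by its probes nearest the end of the gene alone, and it is not known which of its isoforms, made from alternative first exons, gave the signal.

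PAX3, a paired-box factor that acts with SOX10 on the MITF promoter, had 2 probes at 2q36.1, annotated to different transcripts. Probe 1 read 307 with NC and 266 with si-THOC2. The difference was 0.10 (technical SD 0.05, SD of like probes 0.26). Probe 2 read 76.5 with NC and 77.8 with si-THOC2, and since the array was dimmer its difference was 0.33. That is over 3 times the technical SD of 0.10 and under the SD of 0.37 among probes of like signal. In the part of the array around its spot, 0% of the compared probes were called higher and 8.12% lower.

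Among the receptors, MC1R at 16q24.3 had 1 detected probe. Probe 2 read 1632 with NC and 1227 with si-THOC2, a difference of -0.10 (technical SD 0.05, SD of like probes 0.20). The share of lower calls around its spot was 8.33%, and its part in the difference was not tested. Probe 1, from 89981461 to 89981520, had signals of 4.74 and 5.87, not well above background. MC1R is followed on its strand by TUBB3, and transcripts that read from one into the other are known, so the signal of such transcripts cannot be told apart from MC1R here. EDNRB, the endothelin receptor of melanoblasts (13q22.3, 78470568 to 78470627), had 16.5 with NC and 9.61 with si-THOC2, not well above background on either array. The NC value lies above 8.48, the 99th percentile of the 308 negative control spots of that array.

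The melanosome proteins were at or near background. PMEL at 12q13.2 had 13.1 with NC and 12.6 with si-THOC2, not well above background on either array. The NC value lies above the 99th percentile of that array's negative control spots (8.48), and the si-THOC2 value lies under that of its array (14.1). MLANA at 9p24.1 was listed by 2 probes. Its probe 1, from 5908861 to 5908920, had 3.12 with NC and 3.80 with si-THOC2, close to the medians of the negative control spots (3.02 and 3.26). Probe 2 had 2.94 with NC and 18.7 with si-THOC2, where alone it was well above background. Set against the lowest NC signal called well above background, probe 2 was 1.58-fold higher with si-THOC2. As the call has no sharp limit, this is an approximate bound. The measured difference of 2.98 passed the 2-fold call. The software gave the si-THOC2 signal an error of 19.9%, and 39.2 was the highest signal among negative control spots on that array. Around this spot 5.83% of the compared probes were called higher and 7.62% lower, and the part of the spot's place in the result was not tested. The other MLANA probe, printed elsewhere, was not well above background on either array.

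Among the enzymes, tyrosinase, which catalyses the first and rate-limiting step of melanin synthesis, was read by 3 probes at 11q14.3. Their signals ran from 2.98 to 3.50 with NC and from 3.21 to 3.87 with si-THOC2, near the medians of the negative control spots, and none was well above background. TYRP1, which stabilizes tyrosinase, had 5.26 and 3.20 with NC and 3.28 and 3.38 with si-THOC2 at its 2 probes (9p23, 12709176 to 12709235 and 12709800 to 12709859), also not well above background. DCT, or dopachrome tautomerase, at 13q32.1 was the pigment enzyme detected on both arrays. It read 18.0 with NC and 24.4 with si-THOC2, both just over the lowest signal called well above background. The difference was 0.75, or 1.68-fold higher with si-THOC2 (technical SD 0.22), and the SD of probes of like signal was 0.71. The software's error of these signals was 19.4% and 16.7%, and the difference also depended on the processing. With normexp background correction, whose added offset of 50 is larger than both signals and shrinks such differences, it was 0.15.

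**Figure D2:**
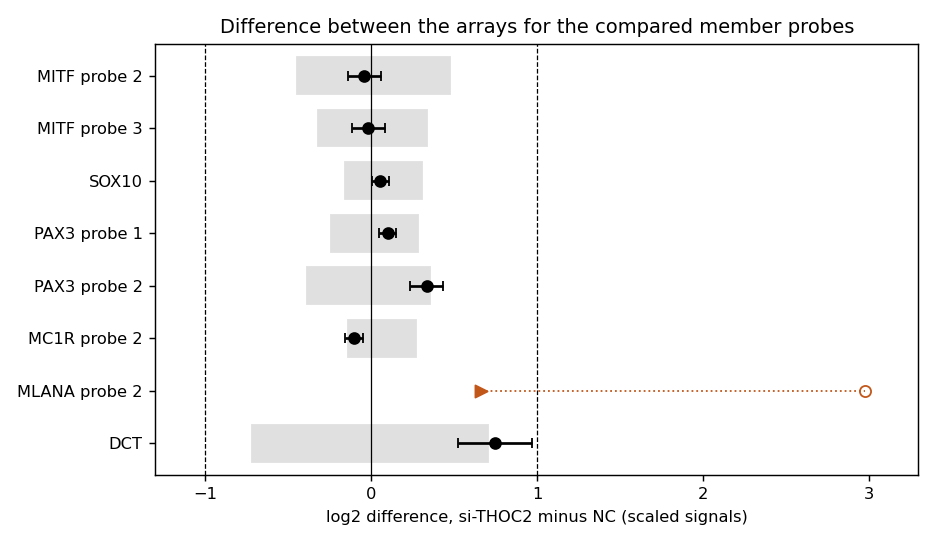
Log2 difference (si-THOC2 minus NC, scaled signals) of the 8 probes detected on at least 1 array. Bars are 1 technical SD, grey bands are the median ± 1 SD of the 1000 probes of closest signal, and dashed lines mark 2-fold. For MLANA probe 2 the open circle is the measured value (2.98) and the triangle the approximate lower bound (0.66). The other differences lie between -0.10 and 0.75, and all of these but DCT's lie inside their band.

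Over all genes of the group, 0 of the 8 compared probes were lower by 2-fold or more and 1, MLANA probe 2, was higher. Of all probes detected on 1 or both arrays, 3.33% were lower and 2.93% higher. Of the 7 probes detected on both arrays, 0 were called in either direction, where 0.365% of all such probes were lower and 0.829% higher. With so few probes, counts of 0 or 1 lie near these backgrounds. The 7 differences ran from -0.10 to 0.75, 4 above 0 and 3 below, and 6 were smaller in size than the SD of probes of like signal, with DCT (0.75 against 0.71) as the exception. The median over the 5 genes detected on both arrays was 0.06, against 0.04 over 15647 genes. With MLANA at its measured value it was 0.14 over 6 genes, against 0.02 over 17514.

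**Figure D3:**
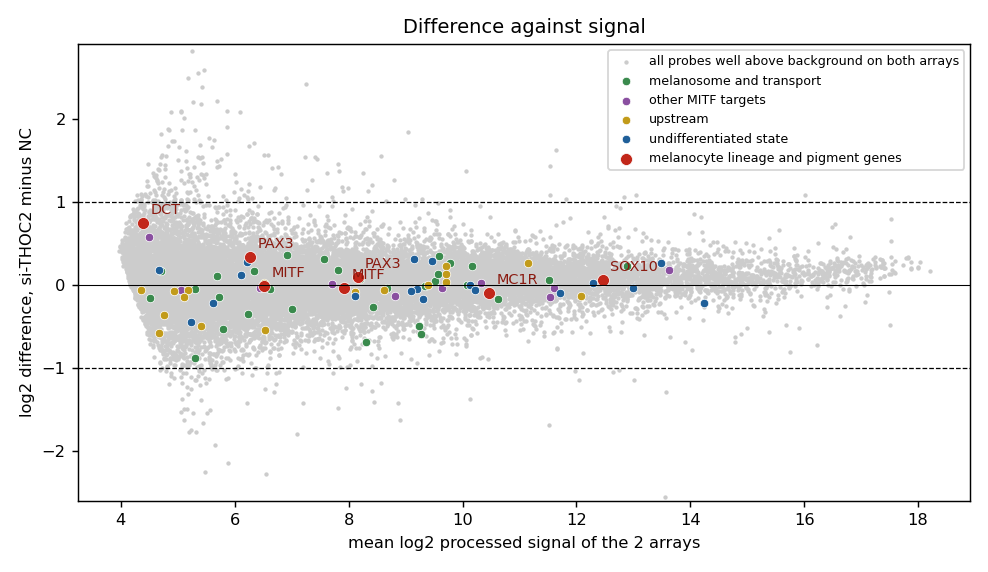
Log2 difference (si-THOC2 minus NC) against the mean log2 processed signal for all 22207 probes detected on both arrays (grey), with the 7 probes of the melanocyte lineage and pigment genes in red and labelled, and probes of the companion gene lists in other colours. Dashed lines mark 2-fold. The spread widens towards low signal, where DCT lies, and the red points lie within the grey cloud.

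The wider pathway was described with 4 lists. For comparison, 15647 of all 34757 genes with a symbol had a probe detected on both arrays. Of all probes detected on both arrays, 0.365% were lower by 2-fold or more and 0.829% higher. Of those detected on 1 or both arrays, 3.33% were lower and 2.93% higher. With so few probes per list, the counts of calls lie near these backgrounds. Melanosome biogenesis and transport was represented by 28 genes with 44 probes, and 22 genes had a probe detected on both arrays. The median of these 22 was 0.03, with 12 above 0 and 10 below, and none of their probes detected on both arrays passed 2-fold. Examples with a strong signal were HPS6 (7746 with NC and 7332 with si-THOC2, a difference of 0.23), BLOC1S2 (3214 and 2694, 0.06), BLOC1S1 (1862 and 1331, -0.18) and RAB38 (1205 and 967, -0.01). HPS6 belongs to a complex that sorts cargo to melanosomes, the BLOC1S proteins to another, and RAB38 is a small GTPase that delivers the enzymes. The differences of largest size were those of DTNBP1, OCA2 and GPNMB. A probe of DTNBP1, a partner of the BLOC1S proteins, had 59.7 with NC and 26.1 with si-THOC2 (-0.88), while its other probe was at -0.02. OCA2, an ion transporter of the melanosome membrane, had 445 with NC and 222 with si-THOC2. Its difference of -0.69 was over 2 times the SD of probes of like signal (0.26). GPNMB, a relative of PMEL, had 848 with NC and 452 with si-THOC2 (-0.60, SD of like probes 0.23). Each of OCA2 and GPNMB had a further probe that was not well above background. A probe of LYST and 1 of the 5 probes of the copper transporter ATP7A passed 2-fold as measured but were detected with NC alone. Against the lowest si-THOC2 signal called well above background they were 1.16-fold and 1.79-fold lower. These bounds are approximate, as the call has no sharp limit. The transporters SLC45A2 and SLC24A5, the melanosomal receptor GPR143 and the linker MLPH had no detected probe on either array.

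Other genes that MITF is known to control, outside the pigment group, numbered 11, and 7 of them had a probe detected on both arrays, 0 of which passed 2-fold. Their median was 0.01. The formin DIAPH1 read 13289 with NC and 12126 with si-THOC2 (0.18). The antiapoptotic BCL2A1 had 3510 and 2752 (-0.04), the growth factor receptor MET 3473 and 2539 (-0.14), and the phosphatase ACP5 1413 and 1162 (0.03). A probe of BCL2, with 20.5 and 24.6, had the difference of largest size (0.57), and its other probe was at -0.06. CAPN3, IRF4, PPARGC1A and TRPM1 were not detected. TRPM1, a channel that melanocytes make under MITF, had 3.28 with NC and 3.35 with si-THOC2.

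Upstream regulators and ligands comprised 18 genes, of which 12 were detected on both arrays, and their median was -0.07. Beta-catenin (CTNNB1) had 5044 with NC and 3720 with si-THOC2 (-0.13), and its partner LEF1 had 859 and 810 (0.22). TFEB and TFE3 are factors related to MITF. TFEB had 2314 and 2236 (0.26) at one probe and 921 and 763 (0.04) at another. TFE3 had 894 and 788 (0.13) at one probe and 751 and 606 (0.001) at another. CREB1, the factor between cAMP and MITF, had differences of -0.54, -0.49 and -0.06 at its 3 probes. The first, with 124 and 68.8, and the second, with 56.0 and 32.2, were larger in size than the SDs of probes of like signal (0.33 and 0.47), and the third, with 41.2 and 31.8, was smaller (0.53). The second (208463847 to 208463906) and the third (208463863 to 208463922) overlap on the genome. Their values of -0.49 and -0.06 each have a technical SD of 0.22. TFAP2B was at -0.58 and ZEB2 at -0.36. The receptor KIT had 1 probe of 3 detected, with NC alone (25.6 and 3.37) and an approximate bound of 1.30-fold lower with si-THOC2. Its measured value was the 1 lower call of this list. ASIP, KITLG, POMC, TFAP2A and TFEC were not detected.

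Genes of the undifferentiated, invasive melanoma state, in which pigment genes are low, numbered 15. Of these, 14 were detected on both arrays, with a median of -0.02 and 0 probes past 2-fold. The receptor tyrosine kinase AXL read 23189 with NC and 16034 with si-THOC2 (-0.22). TGFBI had 11622 and 11231 (0.26), CD44 9213 and 7261 (-0.03), and TNC 5542 and 4530 (0.02). NGFR, the neural crest receptor, had 568 and 571 (0.32), and TEAD4 had 712 and 703 (0.29). EGFR was at -0.44 by one probe and 0.27 by another. SOX9 was not detected. In the NC culture SOX10 was detected and SOX9 was not, beside AXL, NGFR and EGFR.

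The labelled cell type was also checked with other genes. Of 8 melanoma antigens in the list, 6 had a probe under their symbol, and MAGEA3 and CTAG1B had none. All 6 were detected on both arrays, as were 15647 of all 34757 genes with a symbol. Of the 6, 3 were above 0 and 3 below, with a median difference of 0.04. CSPG4 had 20419 with NC and 16101 with si-THOC2 (-0.03) at one probe and 45.8 and 49.9 (0.43) at another. MCAM had 3278 and 2801 (0.08), MAGEC1 206 and 222 (0.41), and S100B 199 and 102 (-0.66). A further probe of MAGEC1 and of S100B was not well above background on either array. S100A1 had 137 and 111 (0.01) at one probe and 357 and 251 (-0.20) at another. PRAME had 434 and 344 (-0.03) and 699 and 570 (0.01), and a further probe not well above background. Markers of other cell types were mixed. The collagens COL1A1, COL1A2 and COL3A1 of fibroblasts and KRT5, KRT1 and DSG3 of keratinocytes were not detected, but KRT10 had 32306 with NC and 20623 with si-THOC2, and KRT14 had 83.9 and 104 (a difference of 0.62) at one probe. Its other probe was detected with si-THOC2 alone (11.9 and 26.9), with an approximate bound of 2.28-fold higher there, the 1 call of the keratinocyte list. The fibroblast gene DCN had 62.4 with NC and 149 with si-THOC2 at one probe, 1.56 higher on the log2 scale. This was the 1 call among marker probes detected on both arrays, where 0.829% of all such probes were called higher. The other DCN probe (3.17 and 3.41) was not well above background on either array. PDGFRB, the only other fibroblast gene of the list that was detected, had 168 and 109 (-0.32) at one probe and 21.5 and 18.8 (0.12) at another. The signal summed over all 7 probes of 3 leukocyte genes was 89.2 with NC and 105 with si-THOC2, and over the 5 probes of 3 Schwann cell genes 90.7 and 39.6. Whether these have a part in the values of the pigment genes was not tested.

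**Figure D4:**
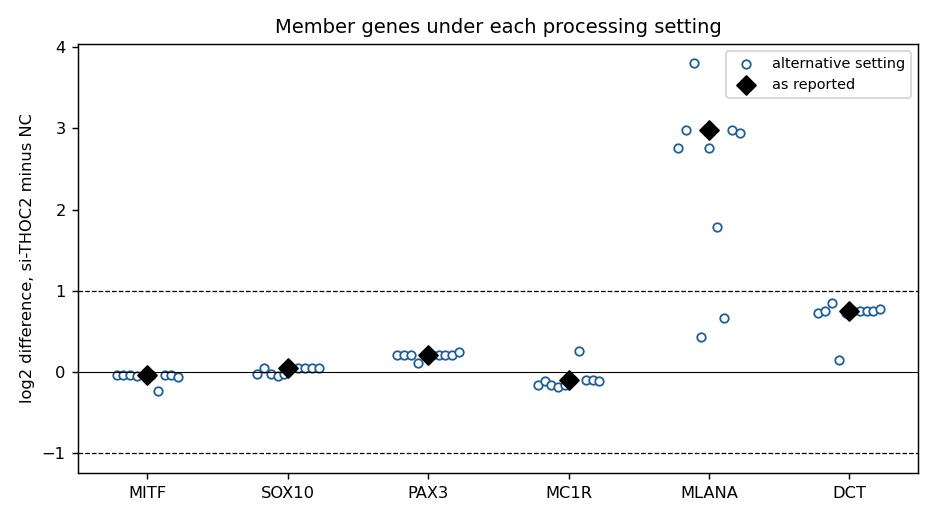
Log2 difference (si-THOC2 minus NC) of the 6 genes with a value, as reported (black diamonds) and under each alternative processing (open circles); dashed lines mark 2-fold. MITF, PAX3, MLANA and DCT keep their sign under every alternative drawn, while SOX10 (-0.04 to 0.06) and MC1R (-0.18 to 0.26) do not, and MLANA ranges from 0.43 to 3.80. The reported value of MITF (-0.03) is smaller in size than the technical SD of its detected probes (0.10), so no direction can be given. MC1R is above 0 only with no detection filter, where an undetected probe entered.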

How the data were processed

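RNA of 2 A375 cultures was measured on 1 array each, grouped by title and description. The authors deposited scanner output of Feature Extraction 10.7.1.1, with intensity values per spot (processed signal, after subtraction of background and detrending) and the software's flags. They also deposited log2 normalized values (quantile normalized, from the equal distributions) and a table of fold changes from their own comparison, which was not used. Outlier spots (147 with NC, 168 with si-THOC2) and control spots were left out, and no spot was saturated. The spots of a probe were averaged, and log2 signals were reduced by the array's 75th percentile. The 25345 probes that 1 or both arrays detected were compared, and 22207 were detected by both. Gene values average the compared probes. Where 1 array detected a probe, its fold is a bound against the lowest signal well above background. The bound is approximate, as some undetected probes had more signal than this. Technical SDs, as medians over the repeated probes, were 0.05 (log2 signal over 8, 244 probes) and 0.10 (6 to 8, 36 probes). They were 0.22 (4 to 6, 6 probes) and 0.42 (under 4, 14 probes) for dimmer signals.

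The genes and companion lists were chosen with earlier results of these data known. All probes of the 10 genes were named, and from each list the 4 genes with the most signal and the 3 differences of largest size, with probes on both arrays, plus genes detected on neither or 1 array and markers of other cell types. Alternatives were quantile, median and lowess scaling (span 0.3), normexp background correction (offset 50), the authors' log2 values, other detection rules, folds of 1.5 and 3, and centring by block of spots. The calculation was tested on simulated data. The number of arrays limits the precision. Exon annotation of hg19 was not used here. Python 3.11.15 with numpy 2.4.6, pandas 2.3.3, statsmodels 0.14.6 and matplotlib 3.10.9, and R 4.3.3 with limma 3.58.1 were used.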

Additional observations from a re-analysis of the deposited data

How the results depend on the processing

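No paired analysis was possible because each condition has a lone array, and none could be left out. The count of probes lower by 2-fold was 0 under all 12 alternatives. The count of higher probes was 1 as reported and 2 at a 1.5-fold threshold, where DCT was added. It was 0 with normexp background correction, 0 with probes detected on both arrays and 0 with dim signals at their limit. These counts of 0 follow from the settings and do not test the call. The both-arrays setting leaves out MLANA probe 2, and the limit setting replaces its difference with the bound of 0.66. Normexp adds an offset of 50, well above this probe's si-THOC2 signal of 18.7, which shrinks its difference. The reported count rests on MLANA probe 2, near the limit of detection on 1 array. With detection set at the 99th percentile of negative control spots, 7 probes were again detected on both arrays. On the NC array alone 9 passed, against 7 by the software's call, with PMEL and EDNRB added. On the si-THOC2 array 8 passed by either rule.

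The median of the genes, 0.14 as reported, was 0.034 with normexp and 0.24 with no detection filter, a setting in which the median of all 58199 probes was 0.31. The THOC2 mean, -1.03 as reported, was -0.54 with normexp. The offset of 50 that normexp adds shrinks differences of dim probes by construction, and its part in these values was not tested. The median of the upstream regulators, -0.07 as reported, was 0.046 with no filter. That of the undifferentiated state genes, -0.02 as reported, was -0.0791 with quantile normalization, -0.0792 with the authors' values and -0.0778 with centring by block. The remaining 74 values of these results over the alternatives moved by less than the technical SD or, for counts, stayed within 1.5 times, and the cause of each change was not tested. PAX3, 0.22 as reported, was 0.11 with normexp, and with no filter MITF was at -0.23 (-0.03 as reported) and MC1R at 0.26 (-0.10 as reported), because an undetected probe of each then entered. Signal over background limits PMEL, MLANA, TYR, TYRP1, EDNRB and DCT, for which a change within a few-fold near background could not be measured.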

Other observations

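The array also carries 10 probes under 8 names of long noncoding RNAs that the annotation names after one of these genes. The annotation lists them under separate names, and they were not counted with their namesakes. EDNRB-AS1, antisense to the EDNRB gene, had a probe detected on both arrays (chromosome 13, 78403178 to 78403237, hg19), reading 62.4 with NC and 51.7 with si-THOC2 with a scaled log2 difference of 0.04 (technical SD 0.22). Its other probe, from 78482701 to 78482760, lies nearer the EDNRB probe. That probe of EDNRB-AS1 had 6.91 with NC and 3.22 with si-THOC2, not well above background. The antisense name was thus detected only at its probe farther from the EDNRB probe. The EDNRB probe itself was not well above background, and signals of different probes are not compared.

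A probe of lnc-PMEL-1, on the strand of PMEL (chromosome 12, 56347523 to 56347582, hg19), had 30.4 with NC and 14.3 with si-THOC2, where it was not well above background. The neighbouring PMEL probe, from 56348089 to 56349072, had 13.1 and 12.6. The lnc-PMEL-1 probe lies downstream of it on the minus strand. A separate transcript and a longer PMEL RNA cannot be told apart here. The probes of lnc-DCT-1, lnc-DCT-9, lnc-MITF-3, lnc-MITF-4, lnc-PMEL-2 and lnc-TYRP1-2 were not well above background on either array.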
